A study of Mus musculus with 8 samples.

Results

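Lsd1 (*Kdm1a*, formerly *Aof2*), its paralog Lsd2 (*Kdm1b*) and the subunits of the CoREST complex were examined in the hearts of mouse embryos that carry a hypomorphic Lsd1 allele. The set comprised 9 genes, *Kdm1a*, *Kdm1b*, *Rcor1*, *Rcor2*, *Rcor3*, *Hdac1*, *Hdac2*, *Hmg20b* and *Phf21a*. They were represented by all 22 probe sets that the platform annotation assigns to 1 of these genes alone, out of 45101 on the Affymetrix Mouse430 array. Each probe set combines several short probes into 1 reading of a transcript. The data were collected from 3 2lox/2lox hearts and 5 wild-type hearts at E18.5, shortly before birth, with 1 array per heart. The 2lox allele is the floxed *Kdm1a* allele before any recombination, with loxP sites in introns and point mutations in the coding sequence of the tower domain, and it is a germline allele carried in every cell, with no Cre used. The 2lox/2lox labels also say Lsd1 knock-out, although the allele still gives a mutated protein. The comparison asks whether the genes of the complex change in level where Lsd1 itself is mutated.

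Lsd1 is a flavin-dependent amine oxidase that removes mono- and dimethyl groups from lysine 4 of histone H3, a mark of active promoters and enhancers. On nucleosomes it acts with a CoREST protein, which binds the tower domain and also holds the deacetylases Hdac1 and Hdac2. Transcription factors such as Rest, Gfi1 and Snai1 bring this complex to genes, and neuronal genes in non-neuronal tissue are its classic targets. Lsd2 has the same chemistry but no tower domain, and it works outside the CoREST complex.

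Cardiomyocyte markers had a mean log2 level of 13.10 to 13.19 in the 2lox/2lox hearts, against 13.10 to 13.14 in the wild-type hearts, over all 10 listed genes. Within that list *Nkx2-5* had a log2 change of 0.27 (limma adjusted p = 0.3365) and *Nppa* had -0.27 (limma adjusted p = 0.393). The deposited values are log2 levels, and the array medians lay between 5.03 and 5.10. Because a whole heart was measured, fewer cells of a type and less RNA per cell cannot be told apart. Control probe sets of *Actb* and *Gapdh* gave a 3′ minus 5′ difference, a measure of RNA degradation, which was 0.52, 0.50 and 0.33 in 2lox/2lox hearts 1, 2 and 3, against 0.32 to 0.38 among wild-type hearts. 2lox/2lox hearts 1 and 2 therefore stood apart from the other 6 hearts, and the main results are also given without them. All 10 macrophage markers had a higher mean in the 2lox/2lox hearts, although 0 passed the adjusted test in limma. At an unadjusted p under 0.05, 7 were higher, where 5.97% of all probe sets were. Their mean level was 7.03 to 7.33 in the 2lox/2lox hearts, against 6.61 to 6.95 in the wild-type hearts. Their mean deviation from the wild-type mean was 0.24, 0.36 and 0.54 in 2lox/2lox hearts 1, 2 and 3, and -0.18 to 0.16 in wild-type hearts. Their median log2 change was 0.33 with all hearts and 0.49 without 2lox/2lox hearts 1 and 2. The part of the macrophage markers in the values of the members was not tested. The mean levels of the thymocyte, lung, skeletal muscle and erythroid lists overlapped between the groups, and 0 of their genes passed the adjusted test. The lung marker *Sftpd* had 4.50 to 4.72 in 2lox/2lox and 4.33 to 4.47 in wild-type hearts (limma adjusted p = 0.380). The median log2 change of the lung list was -0.05. Among skeletal muscle markers, *Ckm* had a log2 change of 1.14 (limma adjusted p = 0.349) and *Myh3* had -0.42 (limma adjusted p = 0.670). The thymocyte markers *Rag1* and *Ptcra* and the lung marker *Scgb1a1* were below the lower quartile of the array values, 4.21, in every heart. Proliferation markers lay at 10.14 to 10.22 in the 2lox/2lox hearts, against 10.08 to 10.16 in the wild-type hearts, and neuronal markers at 4.90 to 4.92 in the 2lox/2lox hearts, against 4.83 to 5.03 in the wild-type hearts, with *Snap25* under the lower quartile in every heart.

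The region upstream of *Kdm1a* is shown because *Kdm1a* was the only member that passed the test and its mutated allele is the variable of the study. In GRCm38.p6 the window lies on the minus strand of chromosome 4 at chr4:136602788-136602973, from 250 to 65 bases before the start site, as given by RefSeq. Capitals mark CpG dinucleotides.
Kdm1a: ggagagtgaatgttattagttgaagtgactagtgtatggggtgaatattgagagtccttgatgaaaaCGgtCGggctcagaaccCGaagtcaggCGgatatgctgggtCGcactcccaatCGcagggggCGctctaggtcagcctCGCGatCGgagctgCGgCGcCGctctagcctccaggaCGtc
These 186 bases hold 14 CpGs, against a median of 4 and an upper quartile of 10 over the 32851 mouse promoter windows of the same length. Both strands were searched for a few short promoter motifs, and the 1 match overlaps no other. The letters CCAAT were found 1 time, and 26.0% of all windows hold them. The letters GGGCGG were not found, and 22.0% of all windows hold them. The letters TATAAA were not found either, and 8.58% of all windows hold them. Of the 9 members, 8 had a promoter entry, and 5 of these (*Kdm1b*, *Rcor1*, *Rcor3*, *Hmg20b* and *Phf21a*) held GGGCGG. *Rcor2* had the fewest CpGs among the members, 10, and *Rcor3* the most, 28. The allele's own sequence upstream of the gene was not analysed here.

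Among the 22 probe sets, those of *Kdm1a* were lower in the 2lox/2lox hearts and no other passed the test. Each probe set was fitted with limma as the 2lox/2lox mean minus the wild-type mean, in a two-sided test with Benjamini-Hochberg adjustment across the 45101 probe sets of the array. At an adjusted p of 0.05, 2 of the 22 member probe sets were lower and 0 higher. Over the whole array 0.0798% of probe sets passed in either direction, 0.0177% lower and 0.0621% higher. At an unadjusted p under 0.05, 5 member probe sets passed, where 10.9% of all probe sets did.

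*Kdm1a* encodes the demethylase itself. Its brighter probe set, 1426762_s_at, had log2 levels of 9.44, 9.53 and 9.55 in the 2lox/2lox hearts, against 10.36, 10.34, 10.29, 10.32 and 10.26 in the wild-type hearts. The groups were separated by a gap far wider than the spread within either, with means of 9.51 ± 0.06 (SD, n = 3) in 2lox/2lox and 10.31 ± 0.04 (SD, n = 5) in wild-type hearts. The log2 fold change was -0.81 (95% interval -0.93 to -0.68, standard error 0.055, limma adjusted p = 0.000515), a fold of 0.572. Set against the wild-type mean, the transcript stood at 54.5%, 58.2% and 58.8% in 2lox/2lox hearts 1, 2 and 3, against 96.4% to 102.9% in the wild-type hearts. Heart 1 was thus the lowest of the mutants, and the transcript remained measurable in all 3.

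The dimmer probe set of *Kdm1a*, 1426761_at, was also lower in every mutant. Its log2 levels were 8.04, 8.24 and 8.17 in the 2lox/2lox hearts, against 9.04, 8.92, 9.04, 9.02 and 8.87 in the wild-type hearts, again without overlap. The fitted log2 fold change was -0.83 (95% interval -0.98 to -0.68, standard error 0.0685, limma adjusted p = 0.00176). The changes of both probe sets differed by only 0.02 on the log2 scale (exact permutation test, two-sided, p = 0.714). Among all probe sets the brighter one ranked 2 and the dimmer one 6 by p. The position of the probes within the transcript, and so their distance from the mutations, was not analysed here.

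Both *Kdm1a* calls passed with any 1 heart left out. With 2lox/2lox hearts 1 and 2 both left out, the brighter probe set still had a log2 fold change of -0.77, with a limma adjusted p of 0.0684, and the dimmer one had -0.81, with a limma adjusted p of 0.112. With the 3′ minus 5′ difference in the model the dimmer probe set had -0.81 (limma adjusted p = 0.0669), while the brighter one still passed.

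**Figure D1:**
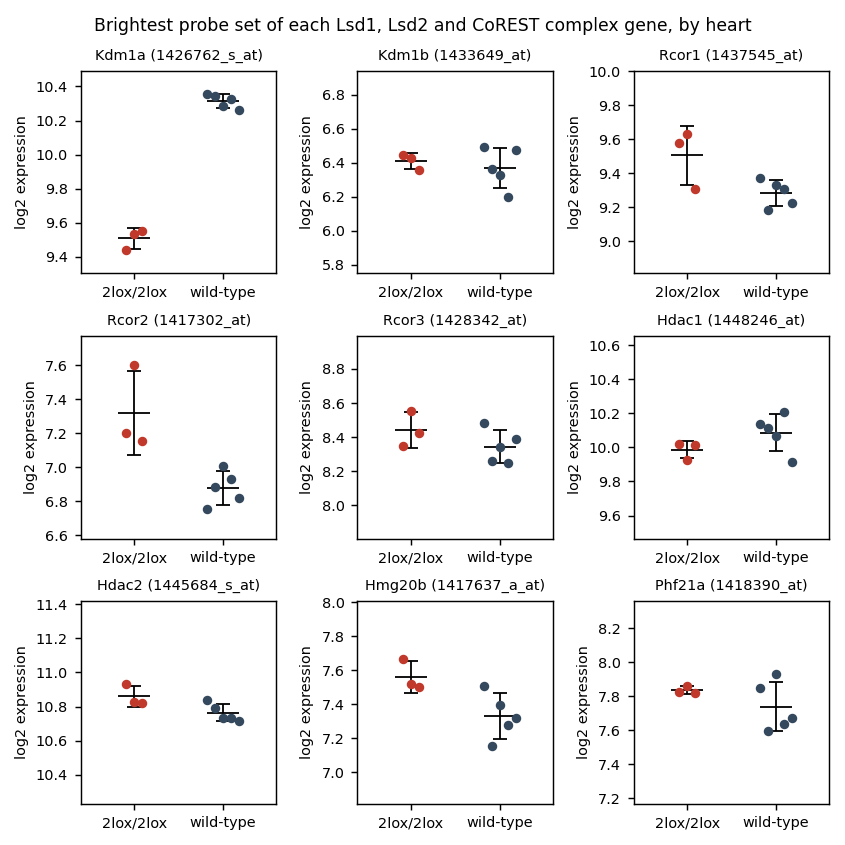
Log2 expression of each of the 9 members in its brightest probe set. Points are hearts (3 2lox/2lox, 5 wild-type) with bars for the group mean ± SD. The *Kdm1a* groups lie apart, at 9.44 to 9.55 in 2lox/2lox and 10.26 to 10.36 in wild-type hearts, and the *Rcor2* groups also do not overlap, at 7.15 to 7.60 in 2lox/2lox and 6.75 to 7.00 in wild-type hearts, while the other 7 members overlap.

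*Kdm1b* encodes Lsd2, the only other histone demethylase of the flavin-dependent kind. Its single probe set had log2 levels of 6.45, 6.42 and 6.36 in the 2lox/2lox hearts, against 6.49, 6.36, 6.33, 6.20 and 6.47 in the wild-type hearts. All 3 mutants lay inside the wild-type range. The log2 fold change was 0.04 (95% interval -0.13 to 0.21, standard error 0.0743, limma adjusted p = 0.904), which as a percentage is 2.82% with an interval of -8.30% to 15.3%. Differences in *Kdm1b* within that interval could not be resolved with 8 arrays.

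The 20 probe sets outside *Kdm1a* had small changes, though not smaller than is usual on the array. Their median absolute log2 change was 0.0976, against 0.0666 over all probe sets. At an adjusted p of 0.05 in limma 0 of the 20 passed. At an unadjusted p under 0.05, 3 were higher (*Rcor1*, *Rcor2* and *Hmg20b*) and 0 lower, where 5.97% of all probe sets were higher and 4.94% lower. In 18 of the 20 the log2 fold change was within 0.25 of zero. In 16 of the 20 the 2lox/2lox mean was above the wild-type mean, against 48.5% of all probe sets, and the median log2 fold change was 0.09, against -0.0036 over all probe sets. Without 2lox/2lox hearts 1 and 2, 13 of the 20 had a mean above the wild-type mean and the median was 0.04. Several of these probe sets belong to the same gene and share hearts, so they do not count as separate observations.

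The positive values were also seen in 1 wild-type heart. Each of the 8 other members was set against its own wild-type mean, in its brightest probe set. The median deviation was 0.13, 0.16 and 0.07 in 2lox/2lox hearts 1, 2 and 3, with 7, 7 and 6 members above the wild-type mean. Wild-type heart 1 had a median deviation of 0.10 and 7 of 8 members above that mean, and the other wild-type hearts had -0.05 to 0.02 with 2 to 5 members above it. The highest values were those of 2lox/2lox hearts 1 and 2, in which the 3′ minus 5′ difference was larger, and the part of RNA quality in this order was not tested.

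**Figure D2:**
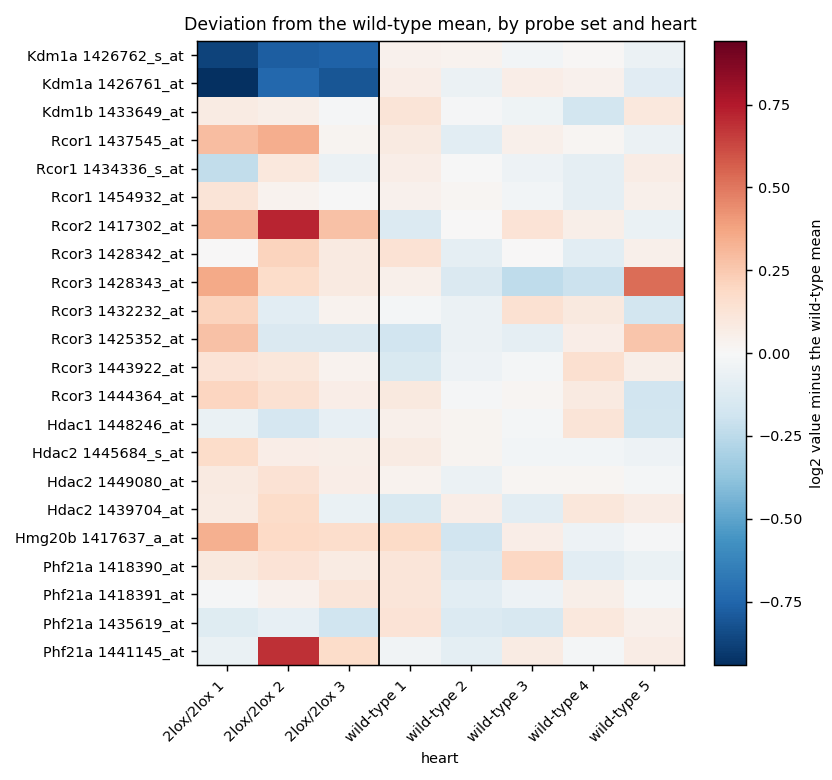
Deviation of each member probe set from its own wild-type mean, on the log2 scale, in each heart (columns, 3 2lox/2lox hearts left of 5 wild-type hearts). Blue is lower and red higher than the wild-type mean. Both *Kdm1a* rows are blue in all 3 2lox/2lox hearts, and the *Rcor2* row is red in all 3, most in heart 2.

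The CoREST scaffolds bind Lsd1 and link it to the deacetylases and to nucleosomes. *Rcor2*, a scaffold known from embryonic stem cells and neural progenitors, had the largest difference among the members outside *Kdm1a*. Its log2 levels were 7.20, 7.60 and 7.15 in the 2lox/2lox hearts, against 6.75, 6.88, 7.00, 6.93 and 6.82 in the wild-type hearts. The groups did not overlap, although heart 2 stood well above the other mutants. The log2 fold change was 0.44 (95% interval 0.21 to 0.67, standard error 0.103), equal to 35.7% with an interval of 15.8% to 59.1%, and the unadjusted p of 0.00158 ranked 323 among all probe sets (limma adjusted p = 0.219). The difference thus did not pass the test.

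The size of the *Rcor2* difference varied with the hearts used. It was 0.30 without 2lox/2lox heart 2, 0.28 without hearts 1 and 2, and 0.30 with the 3′ minus 5′ difference in the model (limma adjusted p = 0.9999). Without 2lox/2lox heart 3 it was 0.52 (limma adjusted p = 0.0525). *Rcor2* and *Hdac2* 1449080_at were the 2 probe sets outside *Kdm1a* whose 2lox/2lox hearts all lay above the wild-type range, where 3.41% of all probe sets did. In the other direction 0 of the 20 lay below it, where 2.71% did, and 6.11% of all probe sets lay outside in either direction.

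*Rcor1* encodes CoREST itself, the partner in which the complex was first described. Its brightest probe set, 1437545_at, had log2 levels of 9.58, 9.63 and 9.31 in the 2lox/2lox hearts, against 9.37, 9.19, 9.33, 9.30 and 9.23 in the wild-type hearts. Hearts 1 and 2 lay above every wild-type heart, and heart 3 lay among them. The fitted log2 fold change was 0.22 (95% interval 0.04 to 0.40, standard error 0.0816, unadjusted p = 0.0215, limma adjusted p = 0.362). Without hearts 1 and 2 it was 0.02, and with the 3′ minus 5′ difference in the model 0.07. Without 2lox/2lox heart 3 it was 0.32 (limma adjusted p = 0.0606). With a sex score (Y-linked genes minus *Xist*) in the model it was 0.25 (limma adjusted p = 0.164).

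The other probe sets of *Rcor1* had values nearer zero. Probe set 1434336_s_at had 8.39, 8.73 and 8.57 in the 2lox/2lox hearts, against 8.54 to 8.69 with a median of 8.62 in the wild-type hearts, and a log2 fold change of -0.06 (95% interval -0.24 to 0.11, limma adjusted p = 0.843). In it, heart 1 was the lowest of all 8 hearts and heart 2 the highest. Probe set 1454932_at had 7.73, 7.64 and 7.60 in the 2lox/2lox hearts, against 7.52 to 7.66 in the wild-type hearts, and a log2 change of 0.05 (limma adjusted p = 0.830). The change of 1437545_at exceeded that of 1434336_s_at by 0.28 (exact permutation test, two-sided, p = 0.107) and that of 1454932_at by 0.17 (exact permutation test, two-sided, p = 0.143). Averaged over the 3 probe sets, *Rcor1* had a log2 change of 0.07 (limma adjusted p = 0.723).

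*Rcor3*, the remaining scaffold, had 6 probe sets and no difference that passed the test. The brightest, 1428342_at, had log2 levels of 8.35, 8.55 and 8.43 in the 2lox/2lox hearts, against 8.48, 8.26, 8.34, 8.25 and 8.39 in the wild-type hearts, with a log2 fold change of 0.10 (95% interval -0.07 to 0.26, limma adjusted p = 0.699). Heart 2 was the highest of all, and the groups overlapped. Probe set 1428343_at had 8.13, 7.94 and 7.86 in the 2lox/2lox hearts, against 7.82, 7.64, 7.53, 7.57 and 8.30 in the wild-type hearts. There every mutant was above 4 of the 5 wild-type hearts, but wild-type heart 5 was the highest of all 8, and the log2 fold change was 0.20 (95% interval -0.15 to 0.56, limma adjusted p = 0.716). Without wild-type heart 5 it was 0.34 (limma adjusted p = 0.330), and without 2lox/2lox heart 1 it was 0.13 (limma adjusted p = 0.965).

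The dimmer probe sets of *Rcor3* carried less signal. Probe set 1432232_at had a log2 change of 0.04 (limma adjusted p = 0.915), and 1425352_at had -0.0006 (limma adjusted p = 0.999) with levels of 5.87 to 6.28 in the 2lox/2lox hearts, against 5.83 to 6.26 in the wild-type hearts. Probe sets 1443922_at and 1444364_at stayed under a log2 level of 5 in every heart. The larger of their differences was 0.14 (95% interval -0.02 to 0.30, limma adjusted p = 0.541) for 1444364_at, whose 2lox/2lox hearts lay at 4.44 to 4.58 and wild-type hearts at 4.20 to 4.46.

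**Figure D3:**
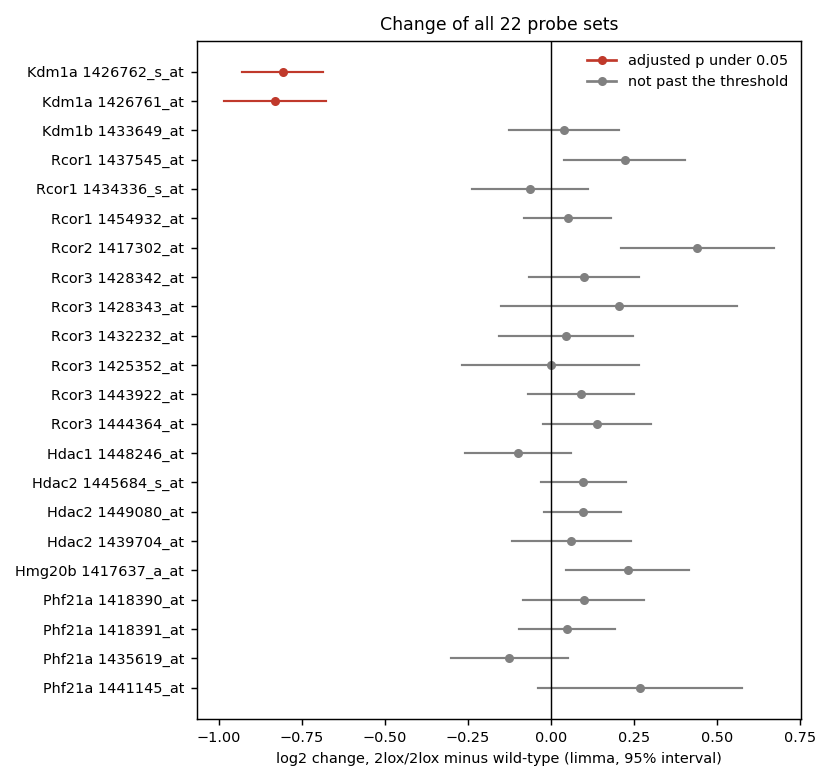
Log2 fold change, 2lox/2lox minus wild-type, of all 22 member probe sets, with the 95% interval from limma. Both *Kdm1a* intervals lie near -0.8, those of *Rcor2*, *Hmg20b* and *Rcor1* 1437545_at lie above zero, and the other 17 cross zero.

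The deacetylases Hdac1 and Hdac2 remove acetyl groups from histones within the complex, and they also serve in other corepressor complexes. *Hdac1*, with a single probe set, had log2 levels of 10.02, 9.93 and 10.01 in the 2lox/2lox hearts, against 10.14, 10.11, 10.06, 10.21 and 9.91 in the wild-type hearts. The mutants lay in the lower part of the wild-type range without leaving it. This gave a log2 fold change of -0.10 (95% interval -0.26 to 0.06, standard error 0.0717, limma adjusted p = 0.684). *Hdac1* was the only member besides *Kdm1a* with a negative value in its brightest probe set. Both genes lie on chromosome 4, within 10 Mb of each other in GRCm38.p6, and no other member lies on that chromosome.

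*Hdac2* had a pair of bright probe sets with nearly equal changes. In 1445684_s_at the log2 levels were 10.93, 10.83 and 10.82 in the 2lox/2lox hearts, against 10.84, 10.79, 10.73, 10.73 and 10.72 in the wild-type hearts, with a log2 fold change of 0.10 (95% interval -0.03 to 0.22, limma adjusted p = 0.599). In 1449080_at they were 9.76, 9.81 and 9.74 in the 2lox/2lox hearts, against 9.71, 9.62, 9.70, 9.69 and 9.66 in the wild-type hearts. Here the groups did not overlap, but the gap between them was only 0.03, and the log2 fold change was 0.10 (95% interval -0.02 to 0.21, limma adjusted p = 0.560). The changes of the pair differed by 0.0012 (exact permutation test, two-sided, p = 0.964). The last probe set, 1439704_at, stayed under a log2 level of 5 in every heart and had 0.06 (limma adjusted p = 0.850).

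The accessory subunits are DNA- and histone-binding proteins. *Hmg20b* encodes BRAF35, an HMG-box protein of the complex. It had log2 levels of 7.67, 7.52 and 7.50 in the 2lox/2lox hearts, against 7.51, 7.15, 7.40, 7.28 and 7.32 in the wild-type hearts. Only wild-type heart 1 reached the level of the mutants. This gave a log2 fold change of 0.23 (95% interval 0.04 to 0.42, standard error 0.0834, unadjusted p = 0.0198, limma adjusted p = 0.357), and it ranged from 0.17 to 0.28 over the alternative settings.

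*Phf21a* encodes BHC80, whose PHD finger binds histone H3 that is unmethylated at lysine 4. Its brightest probe set, 1418390_at, had log2 levels of 7.83, 7.86 and 7.82 in the 2lox/2lox hearts, against 7.85, 7.60, 7.93, 7.64 and 7.67 in the wild-type hearts. The mutants agreed closely with each other and fell inside the wild-type range, with a log2 fold change of 0.10 (95% interval -0.08 to 0.28, limma adjusted p = 0.744). Probe set 1418391_at had 0.05 (limma adjusted p = 0.856), and 1435619_at had -0.13 (95% interval -0.30 to 0.05, limma adjusted p = 0.622). The difference between the changes of 1418390_at and 1435619_at was 0.22 (exact permutation test, two-sided, p = 0.143). The dimmest, 1441145_at, had 4.06, 4.81 and 4.29 in the 2lox/2lox hearts, against 4.02 to 4.20 in the wild-type hearts. Its log2 fold change was 0.27 (95% interval -0.04 to 0.57, limma adjusted p = 0.528). It was 0.0555 without 2lox/2lox heart 2 (limma adjusted p = 0.911) and 0.43 without 2lox/2lox heart 1 (limma adjusted p = 0.512), and 6 of the 8 hearts were below the lower quartile of the array values.

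Whether *Kdm1a* differed from its partners was tested directly. For each heart, the level of another member in its brightest probe set was subtracted from that of the brighter *Kdm1a* probe set, and the groups were compared by an exact permutation test, two-sided. The change of *Kdm1a* was below that of every other member, by 0.71 for *Hdac1* at the least and by 1.25 for *Rcor2* at the most. The 8 comparisons had p = 0.0357 each by the exact permutation test, which is the smallest p that 3 against 5 hearts allow. It was also 0.0357 after Benjamini-Hochberg adjustment over these 8. The 8 comparisons share the same *Kdm1a* values, whose groups were already known to lie apart. They therefore do not count as separate results, and the p-value mostly restates the *Kdm1a* difference. Between probe sets of the same member 13 pairs were compared, and 0 had a p under 0.05 by the same exact permutation test.

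The genes whose pattern over the 8 hearts was most like that of *Kdm1a* were *Sqor*, *Gabra4*, *Fdps*, *AW551984* and *Dcaf12l1*. Each gene was read in whichever of its probe sets was most like *Kdm1a*, not its brightest, and its other probe sets are not given. Likeness was the root mean square difference between log2 profiles, each taken from its own wild-type mean, among probe sets of 1 gene. It was 0.124 for *Sqor*, a mitochondrial sulfide oxidoreductase, 0.129 for *Gabra4*, a GABA-A receptor subunit, and 0.144 for *Fdps*, the farnesyl diphosphate synthase. These 3 genes were lower in the 2lox/2lox hearts, with limma adjusted p of 0.0238, 0.0238 and 0.0236. *AW551984* and *Dcaf12l1* had log2 fold changes of -0.72 and -0.71 (limma adjusted p = 0.0794 and 0.0854). That all 5 were lower follows from how they were chosen, from the same hearts, so their p-values are not separate results. No other member was among the 5.

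The 5 genes most like *Rcor2* were *Ttc3*, *Fbxl7*, *Trpc2*, *Cald1* and *Esrra*, with root mean square differences of 0.060 to 0.080. Each of these probe sets was highest in 2lox/2lox heart 2, as *Rcor2* was, which follows from how they were chosen. *Ttc3* had log2 levels of 4.63, 5.16 and 4.65 in the 2lox/2lox hearts, against 4.19 to 4.51 in the wild-type hearts. *Cald1*, the caldesmon gene, had 5.78, 6.19 and 5.81 in the 2lox/2lox hearts, against 5.19 to 5.62 in the wild-type hearts. None of the 5 passed the test, with limma adjusted p of 0.219 to 0.283.

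Genes that work with Lsd1 or beside it were counted in 6 lists of 40 genes, of which 36 had a probe set of their own. Each gene was read in its brightest probe set. In limma 0 of the 36 were higher and 0 lower at an adjusted p of 0.05, while at an unadjusted p under 0.05 there were 9 higher and 1 lower. Over all probe sets 5.97% were higher and 4.94% lower at that unadjusted threshold. With all hearts, positive values were seen in 6 of 10 recruiting factors, 9 of 11 copurifying proteins and 2 of 2 Lsd2 partners. They were also seen in 3 of 4 flavin amine oxidases, 2 of 3 H3K4 demethylases and 4 of 6 deacetylases. Without 2lox/2lox hearts 1 and 2, 15 of the 36 genes had a positive value, against 22441 of all 45101 probe sets. That fit rests on 1 mutant heart. The other shares over all probe sets given for the members apply here too.

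Transcription factors that recruit Lsd1 had a median log2 fold change of 0.01 over 10 measured genes. *Rest*, the neuronal gene repressor after which CoREST is named, had 8.72, 8.64 and 8.74 in the 2lox/2lox hearts, against 8.63 to 9.05 in the wild-type hearts, with a log2 fold change of -0.03 (95% interval -0.25 to 0.18, limma adjusted p = 0.951). *Insm1*, a zinc finger factor of neuroendocrine cells, had 4.60, 4.47 and 4.53 in the 2lox/2lox hearts, all above the 4.26 to 4.43 of the wild-type hearts. Its log2 fold change was 0.20 (limma adjusted p = 0.303) at a level near the lower quartile. *Snai2*, a factor of epithelial-mesenchymal transition, had -0.25 (limma adjusted p = 0.519), and *Gfi1b*, a factor of blood cell precursors, had -0.18 (limma adjusted p = 0.722).

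Other proteins that copurify with Lsd1 and CoREST had a median log2 fold change of 0.10, and 9 of 11 measured genes had a positive value. *Wiz*, a zinc finger partner of the H3K9 methyltransferases, had 7.90, 7.60 and 7.19 in the 2lox/2lox hearts, against 7.09 to 7.27 in the wild-type hearts. Only hearts 1 and 2 exceeded the wild-type range (log2 fold change 0.36, limma adjusted p = 0.348), and without them the value was -0.009. *Ehmt1*, which encodes the H3K9 methyltransferase GLP, had 9.58, 9.49 and 9.44 in the 2lox/2lox hearts, against 9.28 to 9.42 in the wild-type hearts, with a log2 change of 0.17 (limma adjusted p = 0.358). *Gse1*, a subunit of Lsd1 complexes, had 0.23 (limma adjusted p = 0.381), and 0.09 without hearts 1 and 2. The mean deviation of the list from its wild-type mean was 0.19 and 0.17 in 2lox/2lox hearts 1 and 2 and -0.0038 in heart 3, so it followed the hearts with the larger 3′ minus 5′ differences, whose part in it was not tested. Without those hearts 5 of the 11 genes had a positive value.

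The partners of Lsd2 are *Glyr1* and *Nsd3*. *Glyr1*, which encodes the nucleosome-binding cofactor NPAC, had a log2 fold change of 0.04 (95% interval -0.10 to 0.18, limma adjusted p = 0.872). *Nsd3*, an H3K36 methyltransferase gene, had 8.32, 8.44 and 8.24 in the 2lox/2lox hearts, against 8.04 to 8.21 in the wild-type hearts in its brightest probe set, a log2 change of 0.21 (limma adjusted p = 0.294). The groups did not overlap there, but the other *Nsd3* probe sets had values from -0.08 to 0.14.

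Related enzymes completed the lists. Among flavin amine oxidases, *Maob* had 7.02, 7.09 and 6.90 in the 2lox/2lox hearts, above the 6.25 to 6.88 of the wild-type hearts, and a log2 change of 0.34 (limma adjusted p = 0.372). *Maoa*, the other monoamine oxidase, had -0.19 (limma adjusted p = 0.427), and *Smox*, spermine oxidase, had 0.13 (limma adjusted p = 0.575). The other H3K4 demethylases *Kdm5a*, *Kdm5b* and *Kdm5c*, which also remove trimethyl marks, had log2 fold changes of -0.08, 0.0025 and 0.03 (limma adjusted p = 0.769 to 0.995). Among 6 other histone deacetylases the median was 0.10, and the smallest adjusted p was that of *Hdac5*, with a log2 change of 0.22 (limma adjusted p = 0.451).

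**Figure D4:**
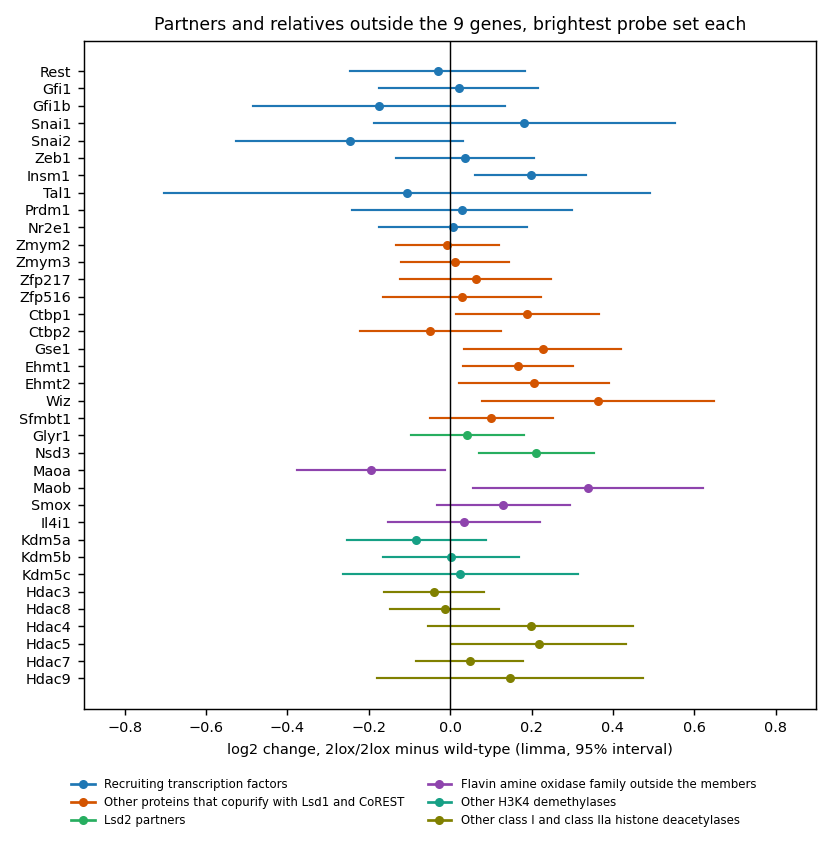
Log2 fold change, 2lox/2lox minus wild-type, of the 36 measured genes of the 6 lists in their brightest probe sets, with the 95% interval from limma. *Wiz* and *Maob* lie farthest above zero, at 0.36 and 0.34, and *Snai2* farthest below, at -0.25, and none passed the adjusted test.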

How the data were processed

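RNA of 3 2lox/2lox and 5 wild-type E18.5 hearts was hybridized to 1 array each, and samples were grouped by their labels. The deposited values are log2 levels that the authors had normalized, by a method not given in the sources used here. Of the tools, the submitters' notes on processing list limma with no version. Detection calls were not used. Arrays have no read depth, so their number limits the precision.

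Each of 45101 probe sets was fitted with limma 3.58.1 under R 4.3.3, by lmFit and plain eBayes, as the 2lox/2lox mean minus the wild-type mean. P-values were Benjamini-Hochberg adjusted across the array, and the threshold was 0.05. The fit was tested on simulated data. The paper states that wild-type and 2lox/2lox littermates were used, but the labels name no litter. Litter could therefore not be modelled, and p-values measure the spread between these hearts. Differences between changes used exact permutation tests over hearts. The platform annotation, updated to a RefSeq table of GRCm38.p6, assigned 34958 probe sets to 1 gene, of which 34754 matched the table, 932 to several genes and 9211 to none.

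The text names all 9 members, the 5 genes nearest in profile to *Kdm1a* and to *Rcor2* and, of each list, up to 3 genes with the smallest p. *Rest* was named outside this rule, after its values were seen. Members and lists were chosen with earlier results of these data known.

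Alternatives were robust moderation, an intensity trend, median centring, quantile normalization, array weights, 2 filters on dim probe sets, a block for the replicate number, a covariate (a sex score or the 3′ minus 5′ difference), the mean over a gene's probe sets, an exact permutation test, and each heart left out. The replicate block used only hearts numbered 1 to 3, without wild-type hearts 4 and 5. Leaving out 2lox/2lox hearts 1 and 2 together was added after seeing the data.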

Additional observations from a re-analysis of the deposited data

How the results depend on the processing

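Over the alternatives the log2 fold change of *Kdm1a* stayed between -0.83 and -0.76 in its brighter probe set and between -0.88 and -0.77 in its dimmer one. Its adjusted p passed the threshold in 18 of 20 alternatives in the brighter and 16 of 19 in the dimmer probe set, and the exact permutation test gave p = 0.0357 in both. Hearts with the same replicate number did not deviate together (correlations of deviations 0.01, -0.08 and -0.05). These correlations cannot show whether any hearts shared a litter. The replicate block fit dropped wild-type hearts 4 and 5, which share no number with a mutant. In it 0 probe sets passed in limma, members included (3351 in all and 5 members at an unadjusted p under 0.05). The *Kdm1a* probe sets then had -0.82, with a limma adjusted p of 0.103, and -0.85, with 0.110. With the 3′ minus 5′ difference in the model 9 passed, 1 of them a member, and the dimmer *Kdm1a* probe set had -0.81 (limma adjusted p = 0.0669). Without 2lox/2lox hearts 1 and 2, an alternative chosen after seeing the data, 6 passed and 0 were members in limma (3 members at an unadjusted p under 0.05), with *Kdm1a* at -0.77 (limma adjusted p = 0.0684) and -0.81 (limma adjusted p = 0.112). The lone 2lox/2lox heart is then assumed to vary like the wild-type hearts. That heart also had a sex score (Y-linked genes minus *Xist*) of -7.25, near only that of wild-type heart 2, -6.98. The part of this in the values was not tested. With 1 heart left out, 17 to 797 probe sets passed, against 36 with all hearts. Leaving out 2lox/2lox heart 3 gave 797, 2lox/2lox heart 1 gave 20, wild-type heart 1 gave 17 and each of wild-type hearts 2, 3 and 4 gave 23, and both *Kdm1a* probe sets passed each time.

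With the replicate block, and so without wild-type hearts 4 and 5, *Rcor3* 1428343_at had 0.31 (limma adjusted p = 0.580). It had 0.20 with all 8 hearts and no block. Leaving out wild-type heart 5 alone, with no block, gave 0.34 (limma adjusted p = 0.330). Changes near zero turned sign. *Rcor3* 1425352_at had 0.008 after quantile normalization, 0.0224 with array weights, 0.11 with the replicate block, 0.0188 with the sex score and -0.14 to 0.0686 with 1 heart left out. With the 3′ minus 5′ covariate the values were -0.003 for *Kdm1b*, -0.0022 for *Rcor1* 1454932_at, -7e-04 for *Rcor3* 1432232_at and -0.0183 for *Hdac2* 1439704_at. Without 2lox/2lox hearts 1 and 2 they were -0.0105 for *Kdm1b*, -0.0067 for *Rcor1* 1454932_at and -0.0653 for *Hdac2* 1439704_at. With 1 heart left out the range was -0.0028 to 0.0705 for *Kdm1b*, -0.15 to 0.0232 for *Rcor1* 1434336_s_at and -0.0362 to 0.12 for *Rcor3* 1432232_at. The cause was not tested. By exact permutation test the unadjusted p was 0.0357 for both *Rcor2* and *Hdac2* 1449080_at, whose groups did not overlap. That is the smallest p that 3 against 5 hearts allow. The p of the same test was 0.107 for *Rcor1* 1437545_at and 0.0714 for *Hmg20b*. Filters on dim probe sets left 18 of the 22 member probe sets. Small differences in dim probe sets cannot be told from background.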

Other observations

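Among the 22 member probe sets, 0 had a wild-type heart set apart from the other wild-type hearts by Dixon's test. The sex score, the mean of Y-linked genes minus *Xist*, was -7.25 in 2lox/2lox heart 3, and it was -6.98 in wild-type heart 2. In the remaining 6 hearts it ranged between 2.06 and 2.68, so each group held 1 heart of the opposite kind. 2lox/2lox heart 3 was also the mutant with the lowest *Rcor1* 1437545_at, *Rcor2* and *Hmg20b* levels, at 9.31, 7.15 and 7.50, and the only mutant with a 3′ minus 5′ difference in the wild-type range. Wild-type heart 2, with the same kind of sex score, had 9.19, 6.88 and 7.15 for these members, inside the range of the other wild-type hearts for *Rcor2* and below it for *Rcor1* and *Hmg20b*.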
